A study of Mus musculus with 6 samples.

Results

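The genes of cholesterol synthesis, uptake and efflux were followed in mouse livers with and without Hmgb2, which encodes a DNA-bending chromatin protein. The group was defined by name, as 34 genes whose symbol the array annotation could carry. Of these, 30 have a row under their symbol and were measured, out of 19505 genes tested. Acat2, Tm7sf2, Soat1 and Soat2 have no row under their symbol and were not analysed here. The livers came from 3 HMGB2-KO and 3 WT male mice, all on a C57BL/6 background and 8 weeks old, and each was hybridised to 1 Clariom S array. The labels give no treatment, diet, feeding state or hour of collection, and they do not say how Hmgb2 was disrupted or in which cells. They number the animals 39, 41 and 32 for HMGB2-KO replicates 1 to 3 and 38, 40 and 31 for WT replicates 1 to 3.

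Cholesterol is built from acetyl-CoA, first through mevalonate and isoprenoid phosphates to farnesyl diphosphate, then through squalene and lanosterol to the finished sterol. In hepatocytes most genes of this route are switched on together by the membrane-bound transcription factor encoded by Srebf2. The escort protein Scap carries it to the Golgi for cleavage when sterols are scarce, and the Insig proteins hold it back in the endoplasmic reticulum when sterols are plentiful. Surplus sterol instead activates the liver X receptors, whose targets include the exporters Abca1 and Abcg1 and the ubiquitin ligase Mylip, which lowers lipoprotein uptake.

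Every value below is a log2 difference from a baseline that the deposited table sets for each row, with the array median subtracted. Livers can thus be compared for a gene, while levels of different genes cannot, and liver identity could not be read from marker levels. The array of WT replicate 2 had a median of 0.26 before centring, against -0.05 to 0.01 on the other 5 arrays, so its centred values rest most on that step. With the values as deposited every log2 fold change is 0.12 lower. Hmgb2 itself was at -0.66, -0.33 and -0.43 in HMGB2-KO replicates 1, 2 and 3, against 0.47, 0.36 and 0.42 in WT replicates 1, 2 and 3, so each liver lay on the side of its label (log2 fold change -0.89, SE 0.13, adjusted p = 0.645 by limma). In whole liver, fewer cells of a type and less RNA per cell cannot be told apart. Nothing in the labels says that the livers share litters or days, and 3 livers per genotype limit the precision.

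No member of the group passed the test between genotypes. Genotypes were compared with limma over all genes, with Benjamini-Hochberg adjustment, and 0 of 30 members had an adjusted p under 0.05, beside 0.0% of all genes. The smallest adjusted p among members was 0.994. At an unadjusted p under 0.05 the count was again 0 of 30, beside 3.68% of all genes. None was lower by 1.5-fold or more at that p, beside 0.702% of all genes, and none was higher, beside 0.0564%. In no member did the 3 HMGB2-KO values all lie below the 3 WT values, beside 5.35% of genes, or all above them, beside 4.32%. The exact two-sided permutation p of single members lay between 0.4 and 1, where 3 against 3 livers allow 0.1 at the least. The fitted log2 fold change, HMGB2-KO over WT, was below 0 in 22 of 30 members, beside 50.5% of all genes, and its median was -0.07 against -0.00 over all genes. With the values as deposited 25 of 30 members lay below 0, beside 77.0% of all genes, so the excess over all genes depends on the centring.

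The members spread widely among the HMGB2-KO livers. All 16 measured enzymes of cholesterol synthesis had their lowest value in HMGB2-KO replicate 2, a liver that held the lowest value for 16.0% of all genes. Of the 16 enzymes 12 also had their highest value in HMGB2-KO replicate 3, which was the highest liver for 17.6% of all genes, and 3.04% of all genes had both. Both livers carry the same genotype label. The pair was singled out after its values were seen, so these shares describe the 6 livers and carry no test.

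**Figure D1:**
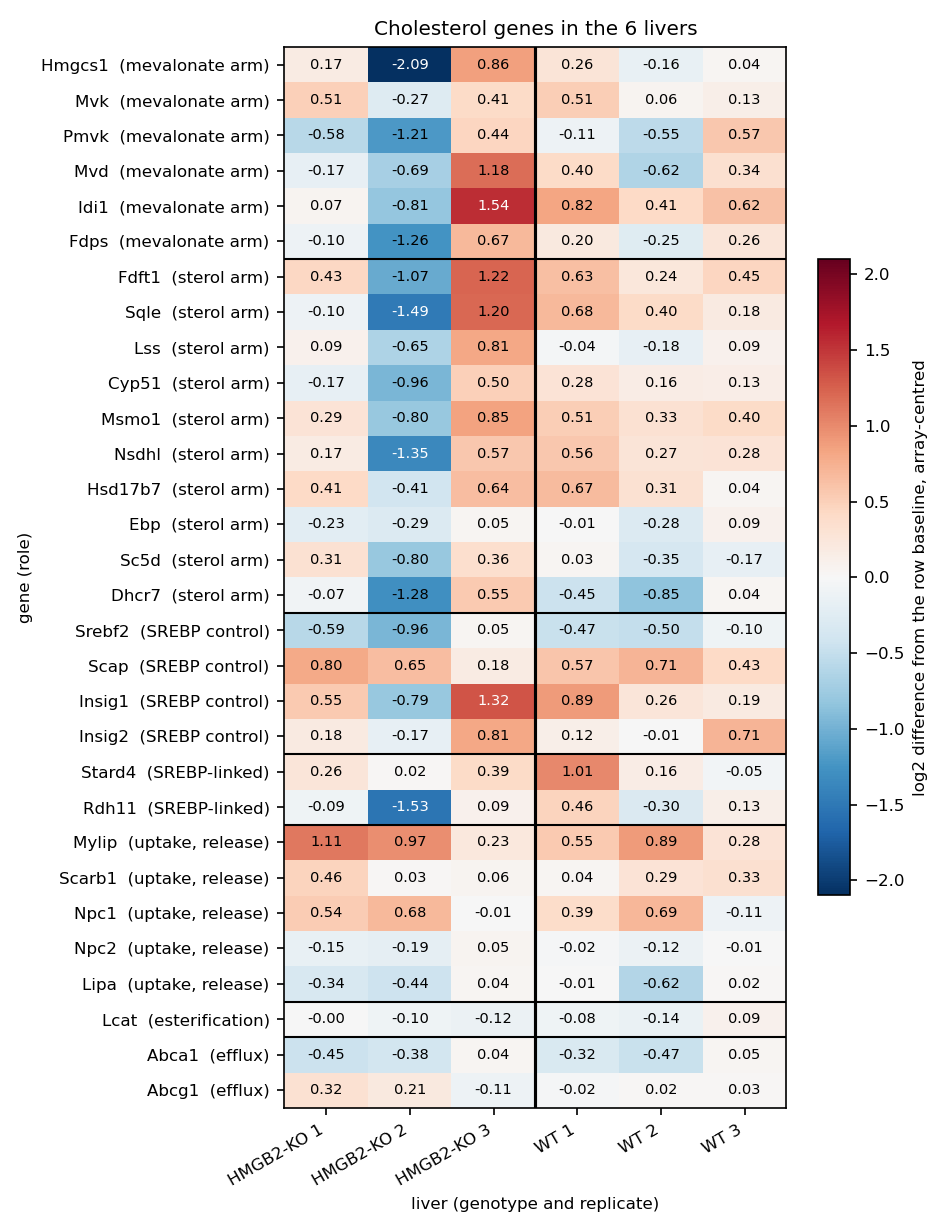
Values of the 30 measured members in each liver, with HMGB2-KO livers in the 3 left columns and WT livers in the 3 right ones, rows ordered by role. Colour and printed number both give the log2 difference from the row baseline after centring. The column of HMGB2-KO replicate 2 is blue for all 16 enzymes and that of HMGB2-KO replicate 3 is red for all 16.

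The widest gap of the 16 enzymes was in the mevalonate arm. Hmgcs1, the cytosolic synthase that makes HMG-CoA, was at 0.17, -2.09 and 0.86 in HMGB2-KO replicates 1, 2 and 3, against 0.26, -0.16 and 0.04 in WT replicates 1, 2 and 3. HMGB2-KO replicate 2 lay far below the other 5 livers, and HMGB2-KO replicate 3 above all of them. The 2 livers differed by 2.95 log2, or 7.75-fold, while the WT livers spanned 0.42 log2. The log2 fold change between genotypes was -0.40 with a standard error (SE) of 0.66 and a 95% confidence interval of -1.94 to 1.14.

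Idi1, which interconverts the isoprenoid building blocks, was at 0.07, -0.81 and 1.54 in HMGB2-KO replicates 1, 2 and 3, against 0.82, 0.41 and 0.62 in WT replicates 1, 2 and 3. Here the 3 WT livers lay between the extremes set by HMGB2-KO replicates 2 and 3, which differed 5.13-fold. Fdps, the synthase of farnesyl diphosphate, was at -0.10, -1.26 and 0.67 in HMGB2-KO replicates 1, 2 and 3, against 0.20, -0.25 and 0.26 in WT replicates 1, 2 and 3. It had the same lowest and highest livers, 3.82-fold apart. Log2 fold changes between genotypes were -0.35 (SE 0.52) for Idi1 and -0.30 (SE 0.44) for Fdps.

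Pmvk, which adds the second phosphate to mevalonate, was at -0.58, -1.21 and 0.44 in HMGB2-KO replicates 1, 2 and 3, against -0.11, -0.55 and 0.57 in WT replicates 1, 2 and 3. Its highest liver was WT replicate 3, with HMGB2-KO replicate 3 next to it, so the genotypes overlapped here too (log2 fold change -0.42, SE 0.43). Mvd, the decarboxylase that follows, spanned 1.87 log2 between HMGB2-KO replicates 3 and 2, and its log2 fold change of 0.07 (SE 0.48) turned to -0.05 with the values as deposited. The mevalonate kinase gene Mvk had a gap of 0.67 log2 and a log2 fold change of -0.02 (SE 0.23), or 0.00 with quantile normalization.

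From squalene onward, 8 of 10 enzymes were lowest in HMGB2-KO replicate 2 and highest in HMGB2-KO replicate 3. Sqle, the squalene epoxidase and a rate-limiting step of the later route, was at -0.10, -1.49 and 1.20 in HMGB2-KO replicates 1, 2 and 3, against 0.68, 0.40 and 0.18 in WT replicates 1, 2 and 3. The HMGB2-KO livers lay on both sides of the WT range, with HMGB2-KO replicates 1 and 2 below it and replicate 3 above it. Its log2 fold change was -0.55 (SE 0.58, 95% confidence interval -1.91 to 0.81).

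Nsdhl, a dehydrogenase that helps to strip methyl groups from lanosterol products, was at 0.17, -1.35 and 0.57 in HMGB2-KO replicates 1, 2 and 3, against 0.56, 0.27 and 0.28 in WT replicates 1, 2 and 3. The other 5 livers lay between 0.17 and 0.57, and HMGB2-KO replicate 2 stood far below them. Cyp51, the lanosterol demethylase, was at -0.17, -0.96 and 0.50 in HMGB2-KO replicates 1, 2 and 3, against 0.28, 0.16 and 0.13 in WT replicates 1, 2 and 3. The WT livers of Cyp51 had an SD of 0.08, against 0.73 among the HMGB2-KO livers. The log2 fold change was -0.58 (SE 0.44) for Nsdhl and -0.40 (SE 0.33) for Cyp51.

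The other enzymes of the sterol arm kept HMGB2-KO replicate 2 at the bottom. Fdft1, the squalene synthase, was 4.88-fold higher in HMGB2-KO replicate 3 than in replicate 2, Dhcr7, the reductase of a last step, 3.58-fold, and the methylsterol oxidase Msmo1 3.13-fold. The gap was 2.77-fold for the lanosterol synthase Lss, 2.23-fold for the sterol desaturase Sc5d and 2.07-fold for the ketosteroid reductase Hsd17b7. Ebp, a sterol isomerase, had the narrowest gap of the 16, at 1.26-fold. Its values in HMGB2-KO replicate 2 and WT replicate 2, -0.29 and -0.28, were nearly equal after centring. The array medians taken off them differed, at -0.05 and 0.26, so that closeness rests on the centring. Hsd17b7 and Ebp were the sterol enzymes whose highest value lay in a WT liver. Log2 fold changes between genotypes were -0.25 for Fdft1, -0.30 for Msmo1, -0.12 for Hsd17b7 and -0.09 for Ebp on the lower side, and 0.12 for Lss, 0.12 for Sc5d and 0.16 for Dhcr7 on the higher.

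Over the 16 enzymes, HMGB2-KO replicate 3 exceeded HMGB2-KO replicate 2 by a median of 1.74 log2, with a range of 0.34 to 2.95. The gap was above 1 log2, or 2-fold, in 14 of 16 enzymes, beside 0.933% of all genes, whose median gap was 0.01. HMGB2-KO replicate 2 lay below all 3 WT livers in 16 of 16 enzymes, beside 24.2% of genes, and HMGB2-KO replicate 3 lay above them in 12 of 16, beside 25.0%. HMGB2-KO replicate 1 lay within the WT range for 9 enzymes, below it for 6 and above it for 1. With the values as deposited it lay within that range for 6, below it for 9 and above it for 1. Its place thus depends on the centring, and the shares of all genes are not given for these counts. The median SD of an enzyme was 0.89 among HMGB2-KO livers and 0.21 among WT livers, against 0.17 and 0.18 over all genes. In 11 of 16 enzymes the HMGB2-KO SD was over 2 times the WT SD, beside 18.4% of genes, and in 14 of 16 the 6 livers spanned over 1 log2, beside 10.7%. HMGB2-KO replicate 2 remained the lowest liver in 16 of 16 enzymes without centring and under quantile normalization, and HMGB2-KO replicate 3 the highest in 11 of 16 with each. The background moved with the scaling. HMGB2-KO replicate 2 lay below all 3 WT livers in 36.8% of all genes without centring and in 23.0% under quantile normalization. HMGB2-KO replicate 3 lay above them in 11.2% and 27.4%.

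**Figure D2:**
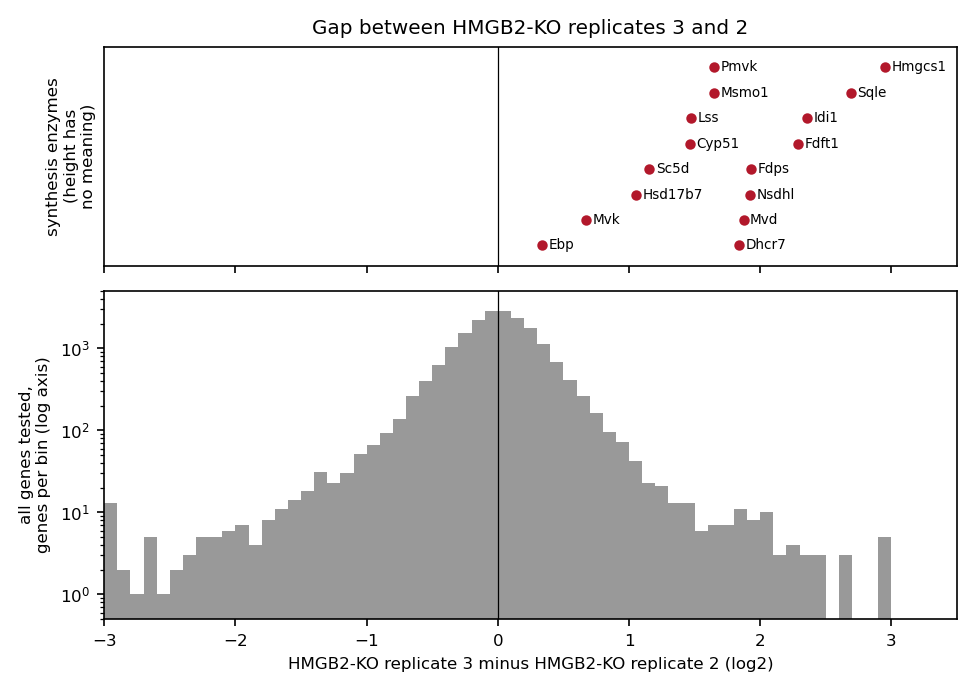
Difference between HMGB2-KO replicate 3 and HMGB2-KO replicate 2, in log2, for the 16 synthesis enzymes (points, upper panel) and for all 19505 genes tested (bars of 0.1 log2, lower panel, log axis, with values beyond 3 in the end bins). All 16 enzymes lie to the right of 0 and 14 lie above 1, where 0.933% of all genes lie.

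The start regions of some enzymes are shown as background, and their part in the differences between livers was not tested. Of the 13 measured synthesis enzymes with an entry in the RefSeq promoter table (build GRCm38.p6), 5 are printed, those with 1 entry and the widest gaps between HMGB2-KO replicates 3 and 2. Each line gives the 150 bases before the annotated start, 5′ to 3′ on the gene's strand. Hmgcs1 is at chr13:119690201-119690350 on the plus strand, Idi1 at chr13:8885456-8885605 on the plus strand, Nsdhl at chrX:72918371-72918520 on the plus strand, Mvd at chr8:122443423-122443572 on the minus strand and Msmo1 at chr8:64733579-64733728 on the minus strand. Capitals mark the sterol regulatory element TCACNCCAC, to which SREBP proteins bind, and the CCAAT box, read as CCAAT or, on the other strand, ATTGG, which is the site of the factor NF-Y that acts beside them.
Hmgcs1: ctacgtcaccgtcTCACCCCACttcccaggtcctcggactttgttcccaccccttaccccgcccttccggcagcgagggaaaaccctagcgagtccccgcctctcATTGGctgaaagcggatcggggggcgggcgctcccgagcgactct
Idi1: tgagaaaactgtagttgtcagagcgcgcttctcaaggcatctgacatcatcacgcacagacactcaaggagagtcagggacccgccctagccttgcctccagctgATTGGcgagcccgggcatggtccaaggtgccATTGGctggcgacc
Nsdhl: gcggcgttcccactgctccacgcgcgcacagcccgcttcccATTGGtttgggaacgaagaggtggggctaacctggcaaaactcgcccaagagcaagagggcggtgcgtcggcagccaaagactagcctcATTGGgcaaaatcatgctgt
Mvd: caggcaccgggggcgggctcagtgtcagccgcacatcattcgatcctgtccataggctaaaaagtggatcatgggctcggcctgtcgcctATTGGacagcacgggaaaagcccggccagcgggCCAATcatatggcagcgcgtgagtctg
Msmo1: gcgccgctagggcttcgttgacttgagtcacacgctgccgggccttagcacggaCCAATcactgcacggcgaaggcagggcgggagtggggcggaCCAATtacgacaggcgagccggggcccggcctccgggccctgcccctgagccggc

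All 5 printed regions hold at least 1 CCAAT box, and that of Hmgcs1 also holds the sterol element, 137 bases before the start. In windows from 250 bases before to 50 after the start, searched on both strands, a CCAAT box occurred in 13 of 13 of these enzymes, against 41.1% of the 27025 genes of the table. Per window the share was 81.2% of 16, against 37.4% of 32851. It occurred as well in 4 of 5 genes of uptake, release, esterification and efflux with an entry. The sterol element in this exact spelling was found in 1 of 13 enzymes and in 1.44% of all genes. The liver X receptor element, written as AGGTCA repeated after 4 bases, was in 0 of 26 members with an entry and in 4 of the 27025 genes. That spelling is so rare that its absence from 26 members says nothing about them, and Abcg1 had no entry. A match says only that the letters are there.

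The genotype difference of the enzymes depended on which HMGB2-KO liver was counted. With all 6 livers 12 of 16 enzymes were lower in HMGB2-KO, with log2 fold changes from -0.58 to 0.16 and a median of -0.27. Without HMGB2-KO replicate 2 the median was 0.20, and 12 of 16 were higher. Without HMGB2-KO replicate 3 it was -0.71, and 16 of 16 were lower. Across all genes the share lower was 50.5% with all 6 livers, 50.0% when HMGB2-KO replicate 2 was left out and 51.7% when HMGB2-KO replicate 3 was. Within animals 38 to 41 alone, which leaves out replicate 3 of both genotypes, the median was -0.61 and 16 of 16 were lower, beside 52.1% of all genes. With the values as deposited 13 of 16 were lower, beside 77.0%.

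Single enzymes showed the same dependence. Without HMGB2-KO replicate 2 the log2 fold change was 0.47 for Hmgcs1, 0.66 for Dhcr7 and 0.13 for Sqle, and without HMGB2-KO replicate 3 it was -1.01, -0.25 and -1.22 for the same genes. Without HMGB2-KO replicate 3, 4 members had an unadjusted p under 0.05, beside 3.40% of all genes. These were Sqle at -1.22 (SE 0.39, unadjusted p = 0.019, adjusted p = 0.998), Idi1 at -0.99 (SE 0.28, unadjusted p = 0.00997, adjusted p = 0.998), Cyp51 at -0.76 (SE 0.24, unadjusted p = 0.0174, adjusted p = 0.998) and Pmvk at -0.86 (SE 0.35, unadjusted p = 0.0456, adjusted p = 0.998). Without HMGB2-KO replicate 2 the count was 1 of 30, near the background of 3.08% of all genes. That member was Sc5d, higher at 0.50 (SE 0.16, unadjusted p = 0.0207, adjusted p = 0.999). By limma none passed after adjustment in either fit. The livers left out here were singled out after their values were seen, so these unadjusted p-values describe the fits and carry no test of genotype.

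**Figure D3:**
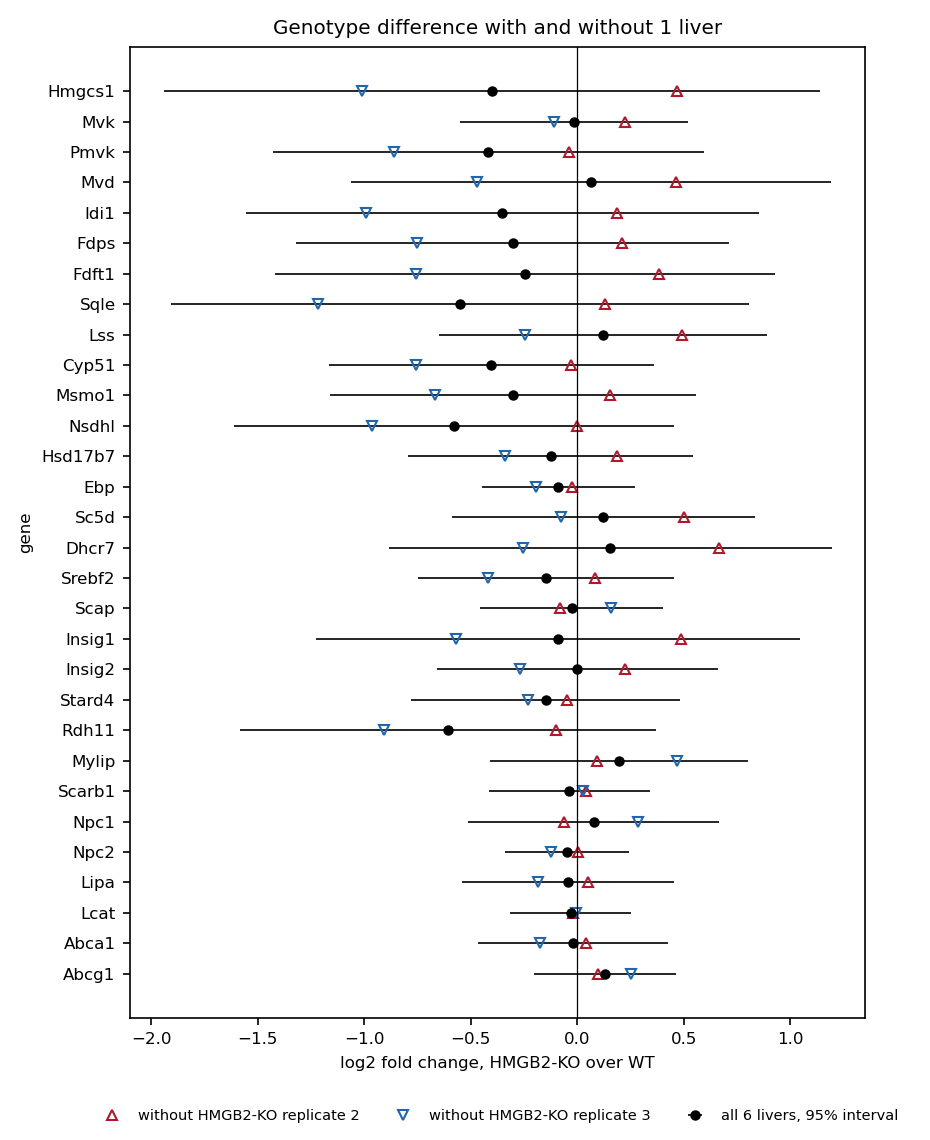
Log2 fold change, HMGB2-KO over WT, of the 30 measured members with all 6 livers (black points, bars the 95% confidence interval), without HMGB2-KO replicate 2 (red upward triangles) and without HMGB2-KO replicate 3 (blue downward triangles). All 30 intervals hold 0, and for 16 of 16 enzymes the blue triangle lies to the left of the red one. That order only restates that HMGB2-KO replicate 3 lay above HMGB2-KO replicate 2 in each enzyme.

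The control genes split in the same way, apart from Scap. Srebf2, which encodes the master activator and is one of its own targets, was at -0.59, -0.96 and 0.05 in HMGB2-KO replicates 1, 2 and 3, against -0.47, -0.50 and -0.10 in WT replicates 1, 2 and 3. HMGB2-KO replicate 2 was again lowest and HMGB2-KO replicate 3 highest, with a log2 fold change between genotypes of -0.15 (SE 0.26). Insig1, a retention protein that the activator itself induces, was at 0.55, -0.79 and 1.32 in HMGB2-KO replicates 1, 2 and 3, against 0.89, 0.26 and 0.19 in WT replicates 1, 2 and 3. The HMGB2-KO livers of Insig1 spanned 4.31-fold and enclosed all WT values (log2 fold change -0.09, SE 0.49).

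Its relative Insig2 was at 0.18, -0.17 and 0.81 in HMGB2-KO replicates 1, 2 and 3, against 0.12, -0.01 and 0.71 in WT replicates 1, 2 and 3. The replicates numbered 3 of both genotypes, from animals 32 and 31, lay above the other 4 livers, and the log2 fold change of 0.00 (SE 0.28) turned to -0.12 with the values as deposited. Scap, the escort protein, ran the other way, at 0.80, 0.65 and 0.18 in HMGB2-KO replicates 1, 2 and 3, against 0.57, 0.71 and 0.43 in WT replicates 1, 2 and 3. HMGB2-KO replicate 3 was its lowest liver, and its log2 fold change was -0.03 (SE 0.18), or 0.01 with quantile normalization.

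Rdh11 and Stard4 are linked to the same activator without making sterols. Rdh11, a retinal reductase, was at -0.09, -1.53 and 0.09 in HMGB2-KO replicates 1, 2 and 3, against 0.46, -0.30 and 0.13 in WT replicates 1, 2 and 3. HMGB2-KO replicate 2 stood apart below the rest, while the highest liver was WT replicate 1. Its log2 fold change of -0.61 (SE 0.42, unadjusted p = 0.187 and adjusted p = 0.994 by limma) had the smallest p of the 30 members, and it was -0.10 without HMGB2-KO replicate 2. Stard4, a carrier of sterol through the cytosol, was at 0.26, 0.02 and 0.39 in HMGB2-KO replicates 1, 2 and 3, against 1.01, 0.16 and -0.05 in WT replicates 1, 2 and 3. WT replicate 1 alone was high, and the log2 fold change of -0.15 (SE 0.27) became 0.17 without it.

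Genes of uptake, lysosomal release, esterification and efflux had narrower ranges than most of the synthesis enzymes. Their 6 livers spanned over 1 log2 in 0 of 8 genes, a count near the background of 10.7% of all genes. The median SD of these genes was 0.25 among HMGB2-KO livers and 0.21 among WT livers, against 0.17 and 0.18 over all genes. Log2 fold changes ran from -0.05 to 0.20 with a median of -0.02. HMGB2-KO replicate 2 was the lowest liver in 2 of 8 and HMGB2-KO replicate 3 the highest in 2 of 8. The plot of group medians sets them beside the synthesis enzymes. In the mevalonate arm the median was -0.02, -1.01 and 0.77 in HMGB2-KO replicates 1, 2 and 3, against 0.33, -0.20 and 0.30 in WT replicates 1, 2 and 3. In the genes of uptake, release, esterification and efflux it was 0.16, -0.03 and 0.04 in HMGB2-KO replicates 1, 2 and 3, against -0.01, -0.05 and 0.04 in WT replicates 1, 2 and 3.

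**Figure D4:**
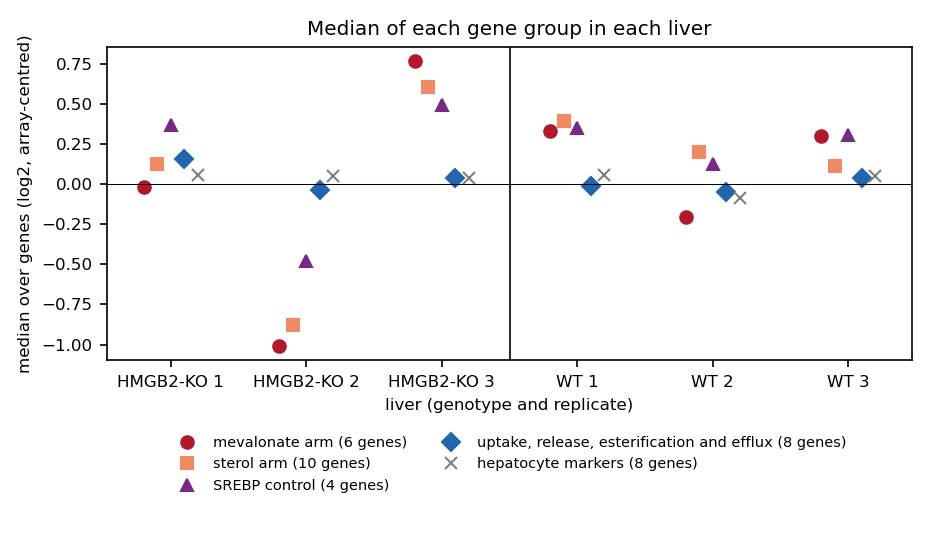
Median over the genes of each group in each liver, in log2 after centring, with HMGB2-KO livers left of WT livers and points of a liver shifted sideways to keep them apart. The mevalonate arm reaches -1.01 in HMGB2-KO replicate 2 and 0.77 in HMGB2-KO replicate 3, while the uptake, release, esterification and efflux genes stay between -0.05 and 0.16 and the hepatocyte markers between -0.09 and 0.06.

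Mylip, the ligase that lowers lipoprotein uptake, was at 1.11, 0.97 and 0.23 in HMGB2-KO replicates 1, 2 and 3, against 0.55, 0.89 and 0.28 in WT replicates 1, 2 and 3. The replicates numbered 3 of both genotypes were the lowest livers, and the genotypes overlapped (log2 fold change 0.20, SE 0.26). Npc1, which moves cholesterol out of lysosomes, was at 0.54, 0.68 and -0.01 in HMGB2-KO replicates 1, 2 and 3, against 0.39, 0.69 and -0.11 in WT replicates 1, 2 and 3. It had the same pair of low livers, and its log2 fold change of 0.08 (SE 0.25) was -0.04 with the values as deposited. Its partner Npc2 was at -0.15, -0.19 and 0.05 in HMGB2-KO replicates 1, 2 and 3, against -0.02, -0.12 and -0.01 in WT replicates 1, 2 and 3. All 6 livers lay within 0.25 log2 of one another for Npc2 (log2 fold change -0.05, SE 0.12).

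The acid lipase gene Lipa, which frees cholesterol from lysosomal esters, had a log2 fold change of -0.04 (SE 0.21). Its lowest value lay in WT replicate 2, at -0.62, after centring, but in HMGB2-KO replicate 2 with the values as deposited. Scarb1, the hepatic receptor for high-density lipoprotein, had a log2 fold change of -0.04 (SE 0.16), or 0.00 with quantile normalization. Its values ran from 0.03 in HMGB2-KO replicate 2 to 0.46 in HMGB2-KO replicate 1. Lcat, the plasma enzyme that esterifies cholesterol on lipoproteins, was at -0.00, -0.10 and -0.12 in HMGB2-KO replicates 1, 2 and 3, against -0.08, -0.14 and 0.09 in WT replicates 1, 2 and 3. No liver stood apart in Lcat, whose log2 fold change was -0.03 (SE 0.12, 95% confidence interval -0.31 to 0.25).

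Abca1, which loads cholesterol onto apolipoprotein, was at -0.45, -0.38 and 0.04 in HMGB2-KO replicates 1, 2 and 3, against -0.32, -0.47 and 0.05 in WT replicates 1, 2 and 3. The replicates numbered 3 of both genotypes were nearly equal and above the rest, and the log2 fold change was -0.02 (SE 0.19), or 0.01 with quantile normalization. Abcg1, which exports cholesterol to high-density lipoprotein, was at 0.32, 0.21 and -0.11 in HMGB2-KO replicates 1, 2 and 3, against -0.02, 0.02 and 0.03 in WT replicates 1, 2 and 3. After centring the 3 WT livers lay within 0.05 log2 of one another, and the HMGB2-KO livers lay on both sides of them (log2 fold change 0.13, SE 0.14). That closeness rests on the centring. The array median taken off was 0.26 in WT replicate 2, against 0.01 and -0.04 in WT replicates 1 and 3.

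Macrophages use Abca1, Abcg1, Npc2 and Lipa too, so the markers of Kupffer cells are given beside them. All 10 Kupffer and macrophage markers had a fitted log2 fold change above 0, where 50.5% of all genes lay below 0. So had 7 of 8 hepatocyte, 4 of 6 endothelial, 4 of 6 stellate and 2 of 5 cholangiocyte markers. These counts rest on the centred values. The median of the Kupffer and macrophage markers was 0.19 (0.07 before centring). The median by liver was 0.52, 0.41 and 0.67 in HMGB2-KO replicates 1, 2 and 3, against 0.35, 0.21 and 0.43 in WT replicates 1, 2 and 3. Its range was thus 0.41 to 0.67 in HMGB2-KO livers and 0.21 to 0.43 in WT livers. As deposited it was 0.48, 0.36 and 0.62 in HMGB2-KO replicates 1, 2 and 3, against 0.36, 0.46 and 0.38 in WT replicates 1, 2 and 3. HMGB2-KO replicate 2 then lay below WT replicates 2 and 3, so the order of the livers depends on the centring. The part of these markers in the values of Abca1, Abcg1, Npc2 and Lipa was not tested. The 8 hepatocyte markers had medians between 0.04 and 0.06 in HMGB2-KO livers and between -0.09 and 0.05 in WT livers. In HMGB2-KO replicate 2, the lowest liver for 16 of 16 enzymes, and HMGB2-KO replicate 3, the highest for 12 of 16, the hepatocyte medians were 0.05 and 0.04. The part of hepatocyte content in the enzyme values was not tested.

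In some members the livers grouped by animal number across genotypes. Animals 32 and 31, replicate 3 of each genotype, lay above the other 4 livers in 10 of 30 members, beside 10.4% of all genes. They lay below them in 3 of 30, a count at the background of 9.32%. The 10 genes were Pmvk, Fdps, Lss, Ebp, Dhcr7, Srebf2, Insig2, Npc2, Lipa and Abca1, and the 3 were Scap, Mylip and Npc1. With the values as deposited the counts were 5 of 30, beside 4.67%, and 4 of 30, beside 14.1%. The labels do not say what the numbers stand for.

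A list of other genes of the pathway held 36, of which 28 were measured. None passed the adjusted threshold by limma, and 2 of 28 had an unadjusted p under 0.05, 1 in each direction, beside 3.68% of all genes. Sort1, a sorting receptor that handles lipoproteins in hepatocytes, was at 0.18, 0.21 and -0.06 in HMGB2-KO replicates 1, 2 and 3, against -0.26, -0.40 and -0.34 in WT replicates 1, 2 and 3. All HMGB2-KO livers lay above all WT livers (log2 fold change 0.45, SE 0.13, unadjusted p = 0.00905 and adjusted p = 0.994 by limma). Npc1l1, a sterol uptake protein, was at 0.03, -0.31 and -0.27 in HMGB2-KO replicates 1, 2 and 3, against 0.25, 0.18 and 0.05 in WT replicates 1, 2 and 3. All its HMGB2-KO livers lay below all WT livers, at a log2 fold change of -0.34 (SE 0.14, unadjusted p = 0.0403 and adjusted p = 0.994 by limma). Pltp, the phospholipid transfer protein, and Mbtps1, the Golgi protease that first cuts the activator, followed at -0.34 (SE 0.15) and 0.25 (SE 0.13). Without WT replicate 1, the highest liver for Pltp, its log2 fold change was -0.20. In Pltp too all HMGB2-KO livers lay below all WT livers. Such separation below WT was thus seen in 2 of 28 genes, beside 5.35% of all genes. Separation above WT was seen in 1 of 28, beside 4.32%.

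The paired exporters Abcg5 and Abcg8, which send sterol into bile, were looked up after their values were seen. Abcg5 was at 0.54, 0.19 and -1.37 in HMGB2-KO replicates 1, 2 and 3, against 0.39, 0.27 and -0.64 in WT replicates 1, 2 and 3, and Abcg8 at 0.79, 0.35 and -1.42 in HMGB2-KO replicates 1, 2 and 3, against 0.70, 0.60 and -0.67 in WT replicates 1, 2 and 3. Both were lowest in HMGB2-KO replicate 3, the liver in which most synthesis enzymes were highest, and next lowest in WT replicate 3. Their log2 fold changes between genotypes were -0.22 (SE 0.50) and -0.30 (SE 0.59), or 0.36 and 0.36 without HMGB2-KO replicate 3. The latter fit keeps WT replicate 3, the other low liver, which raises the difference. Among replicates 1 and 2 the genotypes overlapped in both genes.

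**Figure D5:**
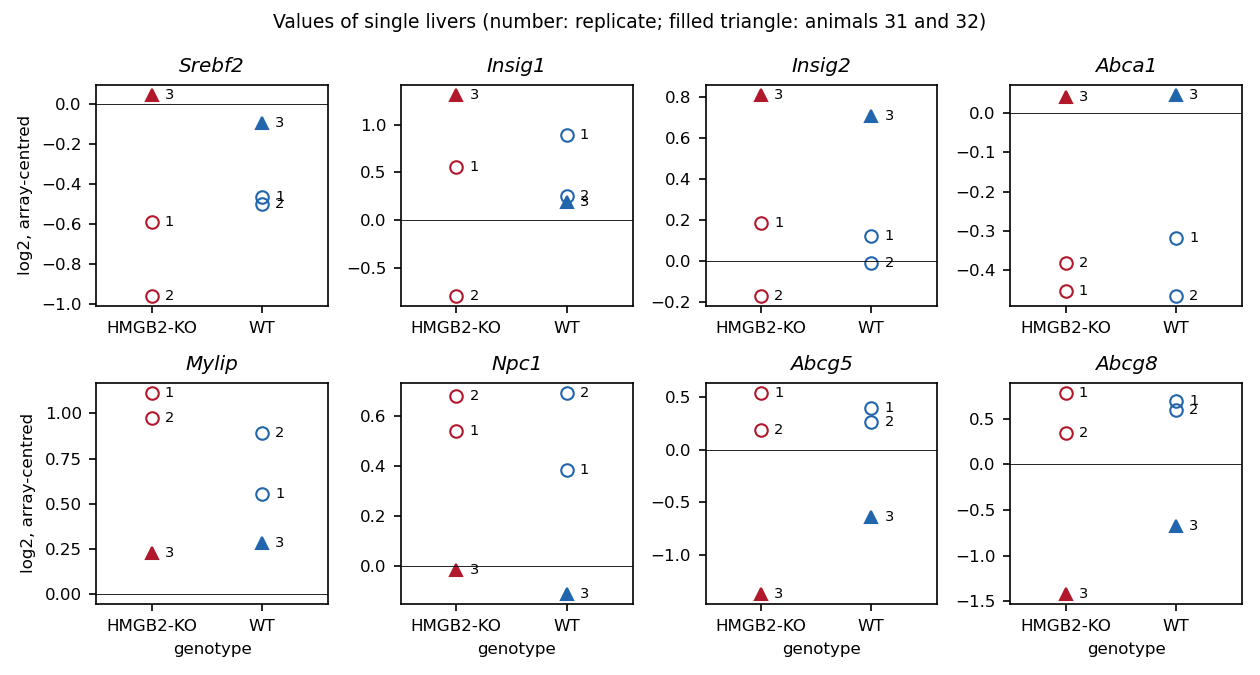
Values of 6 members and of Abcg5 and Abcg8 in each liver, in log2 after centring, with HMGB2-KO left of WT, the replicate number beside each point and the replicates numbered 3 (animals 32 and 31) as filled triangles. The triangles lie above the circles in Srebf2, Insig2 and Abca1 and below them in Mylip, Npc1, Abcg5 and Abcg8, and the vertical scales differ between genes.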

How the data were processed

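Total liver RNA was labelled and hybridised to Clariom S mouse arrays, 1 per liver, per the labels' protocols. The authors deposited 1 table of log2 values, in which every row is set against its own unstated baseline. Base 2 was assumed, and the sources used here do not give the probe summarization or array normalization. Of 22206 rows 19572 carry 1 gene symbol in the platform annotation, 0 several, and 2634 none here. Where a gene had several rows (55 genes), that of highest mean was kept, giving 19505 genes. Each array was centred on its median. Genotypes were compared in limma 3.58.1 under R 4.3.3 (lmFit, eBayes) by a two-sided test with genotype as sole factor, and p-values were adjusted over all genes by Benjamini-Hochberg, at a threshold of 0.05. The fit was also run on simulated data with independent noise in each gene. That run does not cover swings that genes share within a liver, and no result here rests on it. Exact permutation tests used scipy 1.17.1. Deviations from the group means correlated at 0.04, 0.13 and 0.29 between the genotypes' replicates numbered 1, 2 and 3. Between replicates of unlike number the correlations ran from -0.21 to 0.10. The labels name no pairing, so the reported fit did not pair the livers, and the replicate block was kept as an alternative. Promoter sequences are those of RefSeq, build GRCm38.p6, matched by symbol for 26 of 34 members.

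All members were named. Values by liver were given for members with an absolute log2 fold change of at least 0.3 or an unadjusted p under 0.1, and for the 2 of smallest p in each role group, and further members were added where a pattern was described. Of the other pathway genes the 4 with the smallest p were named by rule, and any more were chosen after their values were seen. The members, lists and tests were chosen with earlier results of these data known. Alternatives were the values as deposited, quantile normalization, the mean of a gene's rows, all rows in the fit, array weights, robust eBayes, the replicate block, animals 38 to 41 alone, and each liver left out.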

Additional observations from a re-analysis of the deposited data

How the results depend on the processing

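In none of the 15 fits, the one reported included, did a member pass the adjusted threshold of limma, and the smallest adjusted p of a member was 0.863, with the values as deposited. At an unadjusted p under 0.05 the count of members was 0 in the reported fit, 2 with the replicate block (Pmvk and Rdh11, beside 4.40% of all genes), 3 within animals 38 to 41 (beside 3.78%), and between 0 and 4 with 1 liver left out, the highest without HMGB2-KO replicate 3 (beside 3.40%). Members with all HMGB2-KO values below all WT values numbered 0, or 8 within animals 38 to 41 (beside 18.0% of all genes) and 0 to 8 with 1 liver left out, the highest without HMGB2-KO replicate 3 (beside 10.1%). Those above numbered 0, or 2 within animals 38 to 41 (beside 14.8%) and 0 to 2 with 1 liver left out, the highest without HMGB2-KO replicate 3 (beside 8.69%). The count of members with a log2 fold change below 0, 22 as reported (beside 50.5% of all genes), was 9 without HMGB2-KO replicate 2 (beside 50.0%), 25 without HMGB2-KO replicate 3 (beside 51.7%) and 25 with the values as deposited (beside 77.0%). With 1 liver left out the median log2 fold change lay between -0.26 and 0.096 over the members, -0.71 and 0.20 over the synthesis enzymes, and -0.039 and 0.044 over the genes of uptake, release, esterification and efflux. That last median was -0.02 as reported, -0.14 with the values as deposited, 0.0040 with quantile normalization and 0.065 within animals 38 to 41, where the median was -0.61 over the synthesis enzymes and -0.23 over the members. Signs of single members changed in 15 of 30 without HMGB2-KO replicate 2, in 3 to 7 without another liver, in 8 within animals 38 to 41, in 4 with quantile normalization, in 3 with the values as deposited, in 2 with array weights and in 0 with the other alternatives. The cause was not tested. Array signal over background is not given, so what dimness limits is unknown.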

Other observations

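Of the genes that handle sterols outside the synthesis route, Nceh1 and Cyp27a1 were lower in HMGB2-KO replicate 3 than in HMGB2-KO replicate 2. These and the genes that follow were chosen after their values were seen and carry no test. Nceh1, a hydrolase of cholesterol esters, was at 0.57, 1.14 and 0.40 in HMGB2-KO replicates 1, 2 and 3, against 0.88, 0.45 and 0.11 in WT replicates 1, 2 and 3. Cyp27a1, which oxidises the sterol side chain, was at 0.56, 0.81 and 0.10 in HMGB2-KO replicates 1, 2 and 3, against 0.70, 0.58 and 0.68 in WT replicates 1, 2 and 3. In both the value of HMGB2-KO replicate 2 was the highest of all livers. Dab2, an adaptor of endocytosis, ran with the enzymes instead, at 0.54, -0.05 and 0.75 in HMGB2-KO replicates 1, 2 and 3, against 0.44, 0.41 and 0.44 in WT replicates 1, 2 and 3, its lowest liver being HMGB2-KO replicate 2 and its highest HMGB2-KO replicate 3. Lbr, whose protein can act as a sterol reductase, differed by 0.03 log2 between those livers, and Ggps1, which draws farnesyl diphosphate into the geranylgeranyl branch, by -0.41.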
